A study of Solenopsis invicta with 4 samples.

Results

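In fire ant workers, 126 assembled transcript contigs stood higher in the library made after a day at 30 °C than in each of the libraries made at 10, 20 and 40 °C. They were found by joining the 3 tables in which the authors set 10, 20 or 40 °C against 30 °C, and by keeping the contigs whose normalized value at 10, 20 and 40 °C was below the value at 30 °C in the same table. Of the 9001 contigs listed in any table, 302 were in all 3 tables, and the 126 contigs were 41.7% of those 302. A further 117 contigs, 38.7% of the 302, stood lowest at 30 °C. A contig is a stretch of RNA sequence put together from reads, and contigs of 1 gene can be separate pieces of it.

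The insect is Solenopsis invicta, the red imported fire ant, an invasive ant whose workers come in several body sizes. Wild type adults of the medium worker size, taken from colonies kept at 25 °C, spent 24 h at 10, 20, 30 or 40 °C, and the labels name 30 °C as the control. Total RNA came from whole bodies, and cDNA was primed with oligo-dT. There was 1 library per temperature, and the labels do not give the number of workers or of colonies behind a library. With no replicate, temperatures could not be tested against each other, and each difference given here sets 1 library against another. All 3 comparisons use the same 30 °C library. What raised a contig in that library alone and what distinguishes 30 °C from the other temperatures cannot be told apart in this design.

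Ants take their body temperature from their surroundings, and temperature acts on nerve and muscle excitability, on enzyme rates and on which genes are read out. Nerve cells release transmitter when voltage-gated calcium channels open, and second messengers such as cyclic AMP and inositol trisphosphate carry signals from receptors at the cell surface into the cell. RNA of a whole worker mixes brain, muscle, fat body, gut and glands, so fewer cells of a type and less RNA per cell cannot be told apart.

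Levels are given as reads, as CPM, which divides the reads by the authors' scaled library size, or as FPKM, which also divides by contig length. A fold is the ratio of CPM between 2 libraries, written here as the number of times lower than at 30 °C. Bracketed ranges are exact 95% Clopper-Pearson intervals and cover counting error only, since reads are not independent molecules and the libraries were not repeated. The libraries had scaled sizes of 30024104, 23204029, 38277639 and 43393168 reads at 10, 20, 30 and 40 °C, so that a single read was worth 0.0333, 0.0431, 0.0261 and 0.0230 CPM. The FPKM values follow total reads instead, and on that scale every ratio to 30 °C moves by -0.02 at 10 °C, by -0.64 at 20 °C and by 0.52 at 40 °C, in log2.

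The tables are lists of contigs past a raw p limit of 0.05 in the authors' own comparison, out of 26997 contigs tested. They also carry the mark fc2, which reads as a 2-fold limit, and no listed fold was below 2.35. The share of listed contigs that were lower than at 30 °C was 43.5% for 10 °C, 47.6% for 20 °C and 53.3% for 40 °C, or 7.4%, 5.21% and 8.03% of the contigs tested. The 126 contigs made up 6.31% of the lower list for 10 °C, 8.96% for 20 °C and 5.81% for 40 °C. A contig that was lower everywhere but missed the list at 1 temperature is not among them.

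Together the 126 contigs held 21491, 17649, 92563 and 29162 reads at 10, 20, 30 and 40 °C. On the CPM scale their sums were 716, 761, 2418 and 672. The 3 CPM sums away from 30 °C lay close to one another. The 30 °C sum stood far above them, as the rule that chose the contigs requires. Sums of FPKM were 423.33, 288.32, 1482.82 and 591.06, with 30 °C highest by the same choice and a wider spread among the others. Few contigs carried most of the reads, since the 4 most abundant held 49.2% of the 92563 reads at 30 °C and the 20 most abundant held 77.8%. The rest were scarce. Between 1 and 10 CPM at 30 °C lay 72 contigs, 18 were below 1 CPM, 31 were between 10 and 100 CPM and 5 were above 100 CPM. The lowest had 23 reads at 30 °C, and 20 had under 50.

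The contigs were chosen by these same ratios to 30 °C, which are given as a description. The median contig was 4.26-fold lower at 10 °C, 3.88-fold lower at 20 °C and 3.70-fold lower at 40 °C. Folds ran between 2.38 and 54.1 at 10 °C, between 2.39 and 48.5 at 20 °C and between 2.38 and 21.5 at 40 °C. With a pseudocount of 1 CPM the median log2 ratios were -1.28, -1.22 and -1.19, beside 0.47, 0.40 and -0.38 over all contigs listed at those temperatures and -1.05, -1.01 and -0.94 over all contigs listed as lower. All 126 contigs had intervals below a ratio of 1 at all 3 temperatures, which the p limit of the lists and the rule largely set in advance. On the FPKM scale the medians were 4.33-fold, 6.04-fold and 2.59-fold lower at 10, 20 and 40 °C. That scale raises a ratio by at most 0.52 in log2, and no listed fold was below 2.35. None of the 126 could therefore reach its 30 °C level there. The smallest difference on the FPKM scale was 1.66-fold, at 40 °C, where 101 contigs were at least 2-fold lower.

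**Figure D1:**
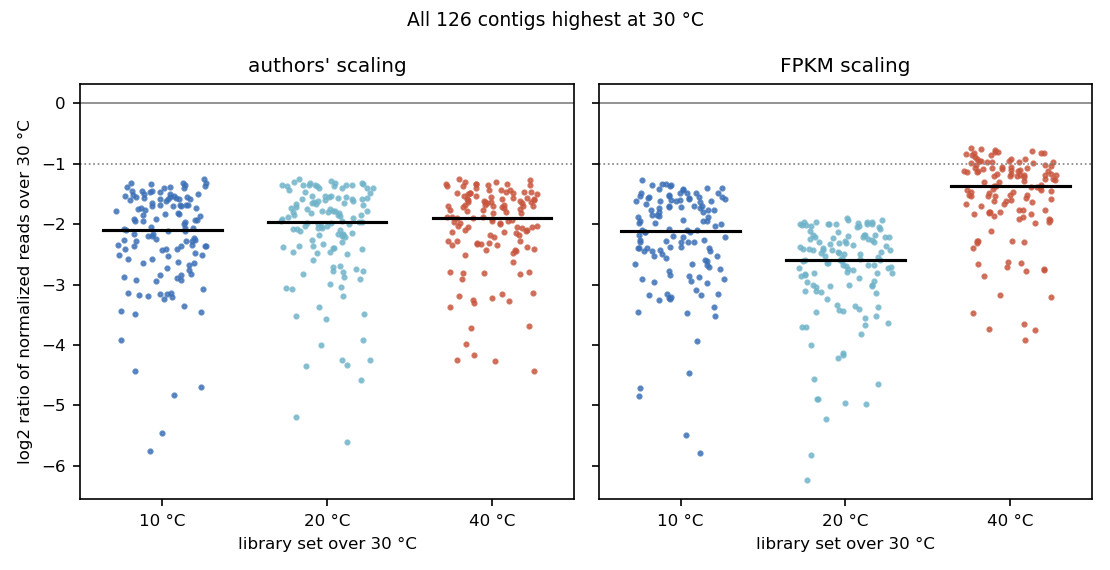
Log2 ratio of normalized reads at 10, 20 and 40 °C over 30 °C for the 126 contigs, 1 point each, without a pseudocount. The left panel uses the authors' scaled library sizes, and its medians (black lines) are folds of 4.26, 3.88 and 3.70 lower. The right panel uses the scaling behind FPKM, and the dotted line marks 2-fold lower. Points at 20 °C lie lower and points at 40 °C higher in the right panel than in the left one. No point reaches 0 in either, which the choice of contigs fixed in advance.

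At least 4-fold lower at 10 °C were 68 of the 126 contigs, beside 23% of all contigs listed there. At 20 °C 58 contigs were that much lower, beside 26%, and at 40 °C 53, beside 26.9%. Those percentages are over listed contigs of both directions, while all 126 were lower by the rule. Among contigs listed as lower, the at least 4-fold lower were 1059 of 1997 at 10 °C and 769 of 1407 at 20 °C. At 40 °C they were 1096 of 2168. Those shares come from the contrasts that chose the contigs. By the adjusted p-values in the authors' deposited tables, with a limit of 0.05, 50 were lower at 10 °C, 19 at 20 °C and 32 at 40 °C, beside 10.7%, 5.11% and 9.2% of all contigs listed at those temperatures. These percentages too are over listed contigs of both directions. The adjusted p-values rest on single libraries. Only 5 contigs were below that limit in all 3 of the authors' deposited tables. They were a TRIO and F-actin-binding protein-like contig, a GMP reductase 2-like contig, a contig of the uncharacterized gene LOC105207287, and 2 contigs with no name.

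The most abundant contig was that of neurobeachin (LOC105196478), a very large protein of neurons that helps to deliver receptors to synapses in mammals. It had 2800, 3148, 15083 and 4838 reads at 10, 20, 30 and 40 °C, or 93.3, 136, 394 and 111 CPM. Its 30 °C level stood apart from the 3 others, which lay between 93.3 and 136 CPM. The contig was 4.23-fold lower at 10 °C (4.06 to 4.40), 2.90-fold lower at 20 °C (2.79 to 3.02) and 3.53-fold lower at 40 °C (3.42 to 3.65). By a relative length inferred from reads over FPKM, it was the longest of the 126 contigs, at 14.0 times the median of all listed contigs. Its gene overlaps another gene in the annotation of assembly UNIL_Sinv_3.0, so the source of its reads is not certain.

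Adenylate cyclase type 8 (LOC105208160) makes cyclic AMP and is stimulated by calcium in mammals. Its contig had 3046, 1530, 12983 and 2944 reads at 10, 20, 30 and 40 °C, or 101, 65.9, 339 and 67.8 CPM. As CPM the levels at 20 and 40 °C were alike, while FPKM was 7.54 at 20 °C and 17.24 at 40 °C, near the 17.83 at 10 °C. Folds were 3.34 lower at 10 °C (3.21 to 3.48), 5.14 lower at 20 °C (4.88 to 5.43) and 5.0 lower at 40 °C (4.80 to 5.21).

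The voltage-dependent calcium channel type A subunit alpha-1 (LOC105195981) is the pore-forming part of a presynaptic calcium channel, named cacophony in Drosophila. There were 2322, 1979, 8386 and 3430 reads at 10, 20, 30 and 40 °C, or 77.3, 85.3, 219 and 79.0 CPM. Away from 30 °C this contig was nearly level as CPM, but not as FPKM, with 15.72, 11.28 and 23.23 at 10, 20 and 40 °C. By CPM it was 2.83-fold lower at 10 °C (2.71 to 2.97), 2.57-fold lower at 20 °C (2.45 to 2.70) and 2.77-fold lower at 40 °C (2.66 to 2.88).

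Protein unc-79 homolog (LOC105200842), an accessory protein of the sodium leak channel that sets the resting excitability of neurons in Drosophila and in worms, was held by 2 contigs. The larger had 2374, 1997, 9107 and 1925 reads at 10, 20, 30 and 40 °C, and the smaller 179, 71, 646 and 105. The larger had 79.1, 86.1, 238 and 44.4 CPM, and the smaller 5.96, 3.06, 16.9 and 2.42 CPM. As CPM both were lowest at 40 °C, while as FPKM both were lowest at 20 °C. At 20 °C the smaller contig was 5.52-fold lower (4.31 to 7.15) and the larger 2.76-fold lower, and at 40 °C they were 6.97-fold (5.67 to 8.66) and 5.36-fold lower. Another contig of this gene, listed in 2 tables, was lower there too, with 2 reads at 20 °C and 16 at 40 °C, against 65 at 30 °C.

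Synaptotagmin-5 (LOC105197710), of a family of vesicle proteins many of which sense calcium, completed the contigs found by the search for channel, synapse and neuropeptide names. It had 67, 56, 235 and 103 reads at 10, 20, 30 and 40 °C, 2.75-fold, 2.54-fold and 2.59-fold lower than at 30 °C. That search found 5 of the 126 contigs, 2 of them of unc-79, and 7 of the 302. It found 1 of the 117 lowest at 30 °C, a Y+L amino acid transporter 2 contig taken by its wording. Among all listed contigs it found 69 at 10 °C, of which 36 were lower, 63 at 20 °C, of which 36 were lower, and 67 at 40 °C, of which 28 were lower. Most contigs with such names on the lists were therefore not among the 126. Just outside the rule, a synaptotagmin 1 contig (LOC105198222) had 99, 89, 489 and 1328 reads at 10, 20, 30 and 40 °C, which is 2.40-fold higher at 40 °C.

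**Figure D2:**
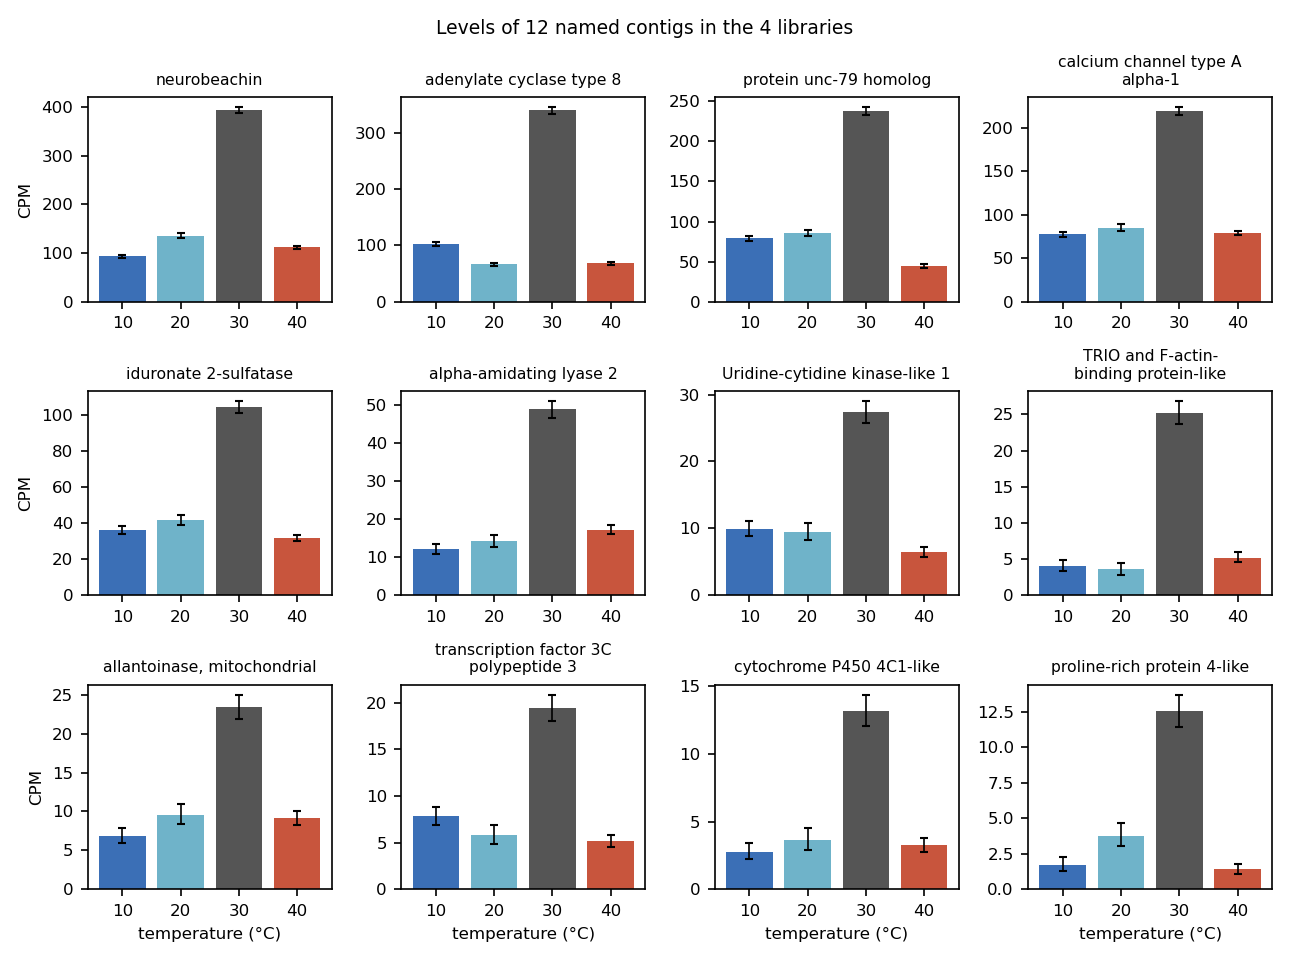
CPM of 12 named contigs in the libraries at 10, 20, 30 and 40 °C. Bars are the value in the 1 library at each temperature and error bars exact 95% Poisson intervals of the read count, which cover counting error only. In every panel the 30 °C bar is highest, as the rule requires. The order of the 3 other bars differs between panels. Neurobeachin had 93.3, 136 and 111 CPM at 10, 20 and 40 °C. Adenylate cyclase type 8 had 101, 65.9 and 67.8 CPM at those temperatures.

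Per unit of length the order at 30 °C was another. The larger unc-79 contig led with 77.32 FPKM, followed by iduronate 2-sulfatase at 72.41, an uncharacterized contig at 64.96 and adenylate cyclase type 8 at 60.66. The calcium channel had 45.31 FPKM and neurobeachin 44.69, a pair of nearly equal levels although their read counts differed. In the other libraries the larger unc-79 contig had 25.26 FPKM at 10 °C, 17.9 at 20 °C and 20.5 at 40 °C, and neurobeachin 10.39, 9.84 and 17.96.

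Iduronate 2-sulfatase (LOC105193763), a lysosomal enzyme that takes sulfate off heparan and dermatan sulfate, had the second highest level per length of the 126 at 30 °C, 72.41 FPKM. Its contig had 1087, 969, 3998 and 1380 reads at 10, 20, 30 and 40 °C, or 36.2, 41.8, 104 and 31.8 CPM. Peptidyl-alpha-hydroxyglycine alpha-amidating lyase 2 (LOC105193621) carries out the last step in putting the amide on the end of neuropeptides. It had 367, 329, 1873 and 749 reads at 10, 20, 30 and 40 °C, and was 4.0-fold, 3.45-fold and 2.83-fold lower at 10, 20 and 40 °C. Both stood well above their other 3 levels at 30 °C, and both genes overlap further genes in UNIL_Sinv_3.0.

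A contig named Uridine-cytidine kinase-like 1 (LOC105197088), after an enzyme that salvages pyrimidine nucleosides, had 299, 219, 1047 and 278 reads at 10, 20, 30 and 40 °C. A contig named allantoinase (LOC105195873), after an enzyme that opens the ring of the purine breakdown product allantoin, had 205, 222, 898 and 397 reads at those temperatures. Its best nucleotide match was a neighbouring uncharacterized gene that overlaps it, so its reads may belong to either. GMP reductase 2-like (LOC105199122), named after the enzyme that turns GMP back into IMP, was scarce, with 5, 1, 60 and 11 reads. Its folds of 9.41, 36.4 and 6.18 lower at 10, 20 and 40 °C were wide, and the interval at 20 °C ran from 6.28 to 1460.

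Cytochrome P450 enzymes oxidise hormones, fatty acids, plant compounds and insecticides, and 2 named contigs belonged to them. P450 4C1-like (LOC105193888) had 83, 85, 505 and 140 reads at 10, 20, 30 and 40 °C. P450 6d3-like (LOC105203237) had 47, 38, 257 and 98 reads, 4.29-fold, 4.10-fold and 2.97-fold lower than at 30 °C, and its best nucleotide match was another P450 gene of the same name. A further 2 contigs matched P450 genes of the fire ant by nucleotide sequence only. They were a 4C1-like gene (LOC105206456) with 12, 9, 103 and 38 reads and a 6k1-like gene (LOC105197405) with 9, 7, 87 and 32 reads. As CPM, the level at 40 °C was above those at 10 and 20 °C in 3 of the 4, while in LOC105193888 it was 3.23 at 40 °C and 3.66 at 20 °C, an order that turns on the FPKM scale, with 15.23 at 40 °C and 7.73 at 20 °C. The family is large, and near-identical copies can share reads. The detoxification search found 2 of the 126 contigs, 2 of the 117 lowest at 30 °C and 5 of the 302. Among the 5 was a cyclic AMP phosphodiesterase 8A contig, taken by its wording. Over all listed contigs the numbers lower at 10, 20 and 40 °C were 34 of 57, 19 of 38 and 16 of 49.

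A TRIO and F-actin-binding protein-like contig (LOC105203661) had wide folds at all 3 temperatures. TRIO and F-actin-binding protein bundles actin filaments in mammals. The contig had 122, 83, 966 and 226 reads at 10, 20, 30 and 40 °C, or 4.06, 3.58, 25.2 and 5.21 CPM. It was 6.21-fold lower at 10 °C (5.14 to 7.56), 7.06-fold lower at 20 °C (5.63 to 8.94) and 4.85-fold lower at 40 °C (4.19 to 5.63). A second contig of the gene was lower as well where it was listed, with 9 reads at 10 °C and 12 at 20 °C, against 107 at 30 °C. A proline-rich protein 4-like contig (LOC105205560) differed even more at the ends of the range, with 51, 87, 480 and 60 reads, 7.38-fold lower at 10 °C, 3.34-fold at 20 °C and 9.07-fold at 40 °C.

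Sugar transfer, folding and translation each had a member. Beta-1,4-glucuronyltransferase 1-like (LOC105202454), named after an enzyme that builds the sugar chain of dystroglycan in mammals, had 63, 111, 457 and 114 reads at 10, 20, 30 and 40 °C. A contig named FK506-binding protein 5 (LOC105202070) had 117, 76, 372 and 134 reads, and a second contig of that gene 10, 1, 80 and 30. The name is that of a family of prolyl isomerases. A probable elongation factor 1-delta (LOC105202206), part of the complex that puts GTP back on the translation elongation factor, had 47, 45, 289 and 112 reads, 4.82-fold, 3.89-fold and 2.93-fold lower. A contig named protein kinase 2-like (LOC105196265) had 70, 51, 374 and 130 reads.

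In the nucleus, general transcription factor 3C polypeptide 3 (LOC105199519) belongs to the complex that starts transcription of transfer RNA genes by RNA polymerase III. It had 234, 134, 744 and 223 reads at 10, 20, 30 and 40 °C. Pre-mRNA-processing factor 17, a splicing factor, had 12, 16, 82 and 9 reads, and a zinc finger protein contig (LOC105196313) 12, 20, 98 and 28 reads. The splicing factor was 10.3-fold lower at 40 °C (5.18 to 23.4), 5.36-fold at 10 °C (2.91 to 10.8) and 3.11-fold at 20 °C (1.80 to 5.69). These intervals overlap. Synembryn (LOC105199108), a chaperone and exchange factor of G protein alpha subunits that was named in worms for its role at synapses, had 18, 13, 69 and 21 reads. Solute carrier family 22 member 3-like (LOC105198349), of a family of organic cation transporters, had 5, 19, 96 and 32 reads and was 15.1-fold lower at 10 °C (6.23 to 47.4). XK-related protein 6-like (LOC105205634), of a family that includes lipid scramblases, had 12, 2, 79 and 32 reads.

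Among the named contigs with at least 50 reads at 30 °C, 3 carried names of mobile elements or of genes derived from them. A contig named Mariner Mos1 transposase (LOC105197307), after a DNA transposon, had 39, 6, 188 and 84 reads at 10, 20, 30 and 40 °C, and another contig of that gene was lower where listed, with 48 reads at 10 °C and 51 at 40 °C, against 171 at 30 °C. A SETMAR-like contig, after a histone methyltransferase gene fused to a mariner transposase in primates, had 22, 21, 135 and 61 reads. A contig named blastopia polyprotein, after a retrotransposon of Drosophila, had 16, 18, 105 and 36 reads. As CPM, all 3 were lower at 10 and 20 °C than at 40 °C. Such elements come in many near-identical copies, so reads cannot be tied to 1 locus. The transposable element search found 1 of the 126 contigs, 1 of the 117 lowest at 30 °C and 2 of the 302. Among all listed contigs it found, 26 of 42, 15 of 28 and 23 of 40 were lower at 10, 20 and 40 °C. The contig lowest at 30 °C, a piggyBac-derived protein 4-like contig, had 19, 11, 2 and 82 reads. Viral names had 1 of the 126, the blastopia contig, and 2 of the 302. The other, named polyprotein, had 6, 278, 90 and 688 reads.

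Contigs named after sensory receptors were few and thinly read, and the contigs given here were picked after their values were seen. A blue-sensitive opsin contig (LOC105200910), a light receptor of the eye, had 7, 5, 37 and 14 reads at 10, 20, 30 and 40 °C. Odorant receptor 67c-like (LOC105193016) had 3, 2, 34 and 3 reads, and odorant receptor 43a-like (LOC105193356) had 6, 5, 33 and 9. Slowpoke-binding protein (LOC105202580), which binds a calcium-gated potassium channel in Drosophila, had 6, 3, 30 and 6. A longer contig of that gene, listed at 20 °C alone, had 421 reads at 20 °C and 1694 at 30 °C. The search for smell, taste and light names found 3 of the 126 contigs and 7 of the 302. It found none of the 117 lowest at 30 °C. The rest of the 7 were odorant-binding protein and ejaculatory bulb-specific protein contigs, lower at 10 and 20 °C but higher at 40 °C. A lush contig had 300 reads at 30 °C and 1300 at 40 °C, and an odorant-binding protein 72 contig 221 and 1854. The ejaculatory bulb-specific protein 3 contig had 490 and 5852, and the 3-like contig 305 and 1953. Over all listed contigs the numbers lower at 10, 20 and 40 °C were 17 of 22, 15 of 15 and 14 of 32.

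Markers of tissues were counted over the same lists. Of the listed nervous system markers 5 of 9 were lower at 10 °C, where they summed to 43.7 CPM against 128 CPM at 30 °C, and 6 of 9 were lower at 20 °C, with 19.7 CPM against 44.2 CPM at 30 °C. At 40 °C 6 of 14 were lower, with 93.7 CPM against 104 CPM at 30 °C. Photoreceptor markers were lower in 2 of 3, 1 of 3 and 5 of 5 contigs at 10, 20 and 40 °C, with sums of 12.8 CPM against 9.38, 14.1 against 5.02 and 45.8 against 120 at 30 °C. Each of these lists had 1 contig among the 126, and the muscle, fat body, gut, venom gland and germline lists had 0. Venom gland markers were higher in 7 of 7 contigs at 10 °C, with 1436 CPM against 474 CPM at 30 °C, in 6 of 7 at 20 °C, with 2400.2 CPM against 586 CPM at 30 °C, and in 3 of 4 at 40 °C, with 24.5 CPM against 8.80 CPM at 30 °C. Fat body markers were higher in 0 of 1, 1 of 3 and 5 of 5 contigs at 10, 20 and 40 °C, with sums of 28.8 CPM against 77.2, 14.5 against 7.81 and 479 against 148 at 30 °C. Gut markers were higher in 4 of 8, 3 of 4 and 4 of 12, with 24.5 CPM against 36.6, 2.84 against 1.41 and 464 against 375 at 30 °C. Each sum is over the contigs listed at that temperature, a different set each time, so the sums cannot be followed across temperatures. Only contigs past the limits of the lists enter them. Venom gland sums were above 30 °C at every temperature. Fat body and gut sums were below 30 °C at 10 °C and above it at 20 and 40 °C. At 10 °C the fat body sum was 1 contig, and at 40 °C 8 of 12 gut contigs were lower although their sum was higher. Germline markers were higher in 5 of 9, 1 of 2 and 4 of 5, with 24.7 CPM against 59.8, 0.948 against 0.627 and 39.5 against 18.5 at 30 °C. Muscle markers were higher in 4 of 6 at 10 °C and 2 of 3 at 20 °C, with 77.1 CPM against 41.7 and 1.64 against 0.836 at 30 °C, and none was listed at 40 °C. Every listed contig had at least 1 read in both libraries of its table, so no listed marker was at 0, and no haemocyte marker was listed. The part of the tissue makeup of the 30 °C library in the 126 contigs was not tested.

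Other named groups had few or no contigs among the 126. The word searches for chaperone, proteasome and ubiquitin, mitochondrial respiration and vesicle traffic names found none of the 302 contigs. They go by wording and not by function. Synembryn, described above as a chaperone, the FK506-binding protein 5 contigs and the synaptotagmins, counted under synapse names, were therefore not found by them. Sugar and central metabolism had 0 of the 126 contigs, 5 of the 117 lowest at 30 °C and 6 of the 302. Peptidases had 0, 4 and 6 in the same order, and venom names 0, 2 and 2. Transcription and chromatin had 4, 3 and 8, kinases and phosphatases, a search that also takes cyclases, 3, 3 and 9, and cytoskeleton and muscle 2, 3 and 6.

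What the annotation says of a contig was not used by the rule. A protein name was carried by 37 of the 126 contigs, 29.4% (21.6 to 38.1), against 41.0% (32.0 to 50.5) of the 117 lowest at 30 °C, 37.4% of the 302 and 36.4% of all 9001. A further 17 had a protein hit with no name, 13.5% of the 126. A match by nucleotide sequence only was the best annotation of 36, 28.6% (20.9 to 37.3), against 14.5% (8.70 to 22.2) of the contigs lowest at 30 °C, 20.5% of the 302 and 20.4% of the 9001. No match at all was found for the other 36. The intervals for the contigs highest and lowest at 30 °C overlap in every class, narrowly for nucleotide matches, and contigs of 1 gene are not independent.

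**Figure D3:**
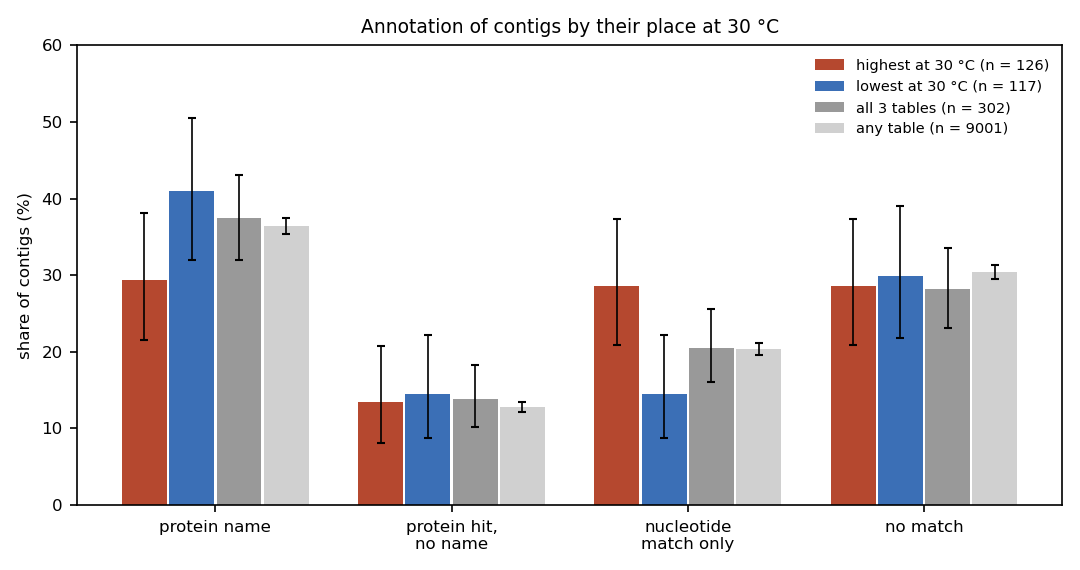
Share of contigs, in percent, with a protein name, a protein hit without a name, a nucleotide match only and no match, for the 126 contigs highest at 30 °C, the 117 lowest at 30 °C, the 302 in all 3 tables and the 9001 in any table. Error bars are exact 95% Clopper-Pearson intervals, and the widest gap between the red and the blue bars is in the nucleotide matches, at 28.6% and 14.5%.

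Of the 36 nucleotide matches, 12 matched the fire ant itself, 33.3%, against 11 of 17 of those lowest at 30 °C, 64.7%, and 787 of 1832 over any table, 43.0%. The other 24 matched other ants, apart from 1 that matched a SETMAR-like gene of a tree shrew. Among them were well-read contigs with the names of signalling proteins. A match to the sterile alpha and TIR motif-containing protein 1 gene of the ant Cerapachys biroi, a gene whose product drives the breakdown of injured axons in flies and mammals, had 571, 566, 2329 and 1026 reads at 10, 20, 30 and 40 °C. A match to the inositol 1,4,5-trisphosphate receptor gene of Wasmannia auropunctata, the channel that releases calcium from the endoplasmic reticulum, had 358, 234, 1339 and 334 reads. A match to Kv channel-interacting protein 4 of Cerapachys biroi, a calcium-binding partner of potassium channels, had 161, 108, 618 and 225 reads. By CPM, folds of this last contig were even, at 3.01, 3.47 and 3.11 lower. A nucleotide match without a protein hit can lie in any part of a transcript, and these names belong to the matched gene.

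Further nucleotide matches spanned membrane and nuclear proteins. A fire ant gene named major facilitator superfamily domain-containing protein 6 (LOC105195501) had 635, 371, 2025 and 827 reads at 10, 20, 30 and 40 °C. A match to pikachurin of Linepithema humile, an extracellular matrix protein of photoreceptor synapses in mammals, had 426, 352, 1486 and 599 reads, and a match to a probable G-protein coupled receptor, CG31760, of Wasmannia auropunctata 42, 35, 259 and 71. By CPM both held a steady ratio to 30 °C across the 3 temperatures, with folds of 2.74, 2.56 and 2.81 for pikachurin and 4.84, 4.49 and 4.14 for the receptor. A class E basic helix-loop-helix protein 22 gene of the fire ant (LOC105201731), a transcription factor of neurons in mammals, had 46, 17, 191 and 82 reads, and a match to fez family zinc finger protein 2-like of Vollenhovia emeryi had 6, 5, 55 and 16. A sterol O-acyltransferase 1-like gene (LOC105196519), after the enzyme that makes cholesterol esters, had 5, 5, 69 and 29. As CPM, these last 3 were lowest at 10 or 20 °C, with 40 °C between those levels and 30 °C.

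Of the contigs without any name the most abundant belonged to the uncharacterized gene LOC105198041. It had 251, 417, 2464 and 1175 reads at 10, 20, 30 and 40 °C, or 8.36, 18.0, 64.4 and 27.1 CPM. Each warmer library up to 30 °C had more than the one before. Its 40 °C value lay just inside the rule, at 2.38-fold lower. Also just inside were a contig matching a dynein heavy chain 12 gene, 2.38-fold lower at 10 °C with 385 reads against 1167 at 30 °C, and a contig matching an uncharacterized gene of Monomorium pharaonis, 2.39-fold lower at 20 °C with 250 reads against 986 at 30 °C. Just outside, beside the synaptotagmin 1 contig, were an unnamed contig with 121, 128, 678 and 1823 reads, 2.37-fold higher at 40 °C, and a match to a fatty acid hydroxylase domain gene (LOC105194328) with 93, 96, 391 and 1056 reads, 2.38-fold higher at 40 °C. The smallest fold in the authors' deposited tables was 2.35, so no listed contig lay close to a ratio of 1.

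The widest folds belonged to scarce contigs. At least 4-fold lower at all 3 temperatures were 22 contigs, 7.28% of the 302, and their median was 40.5 reads at 30 °C, against 158 for the 126. Of the 22, 6 had a protein name, 6 a protein hit without a name, 4 a nucleotide match and 6 no match. An unnamed contig with a protein hit had 6, 2, 67 and 4 reads at 10, 20, 30 and 40 °C. The uncharacterized gene LOC105207287 had 7, 3, 59 and 7 reads, and a contig with no match 1, 1, 33 and 4. These 3 had 1 to 7 reads away from 30 °C, and their folds have wide counting intervals.

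The ratios were also taken by class of annotation. The contigs with a protein name had median folds of 4.29, 3.89 and 3.72 lower at 10, 20 and 40 °C, and those with no match 4.17, 3.89 and 3.78. Contigs with a nucleotide match only had 3.66, 3.50 and 3.33, the smallest medians, and the 17 with a protein hit but no name had 5.70, 4.29 and 3.99, the largest. At 30 °C the median FPKM was 4.16 for named contigs and 3.2 for protein hits without a name. It was 8.41 for nucleotide matches and 5.37 for contigs with no match. Named contigs were the longest by inferred relative length, at 1.72 times the median of all listed contigs. Those with no match were at 0.812. Over the 126 contigs the median relative length was 1.26, against 1.06 for the 117 lowest at 30 °C and 1.17 for the 302.

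Which of the other 3 temperatures was lowest is not fixed by the rule. With the authors' scaling the lowest of the 3 was 10 °C in 54 of the 126 contigs, 20 °C in 34 and 40 °C in 38. The scaling behind FPKM gave 21, 99 and 6, so the order of the 3 temperatures followed the choice of scaling. The median ratio of 40 °C over 10 °C was 1.07 with the authors' scaling and 1.56 on the FPKM scale, and single contigs ran between 0.277 and 18.7 with the authors' scaling. In 72 contigs 40 °C was above 10 °C, and the counting interval lay wholly above 1 in 27 contigs and wholly below 1 in 20. On the FPKM scale those counts were 99, 60 and 6. The 117 contigs lowest at 30 °C had a median ratio of 0.803 with the authors' scaling and 1.17 on the FPKM scale, and no test of the difference was made.

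**Figure D4:**
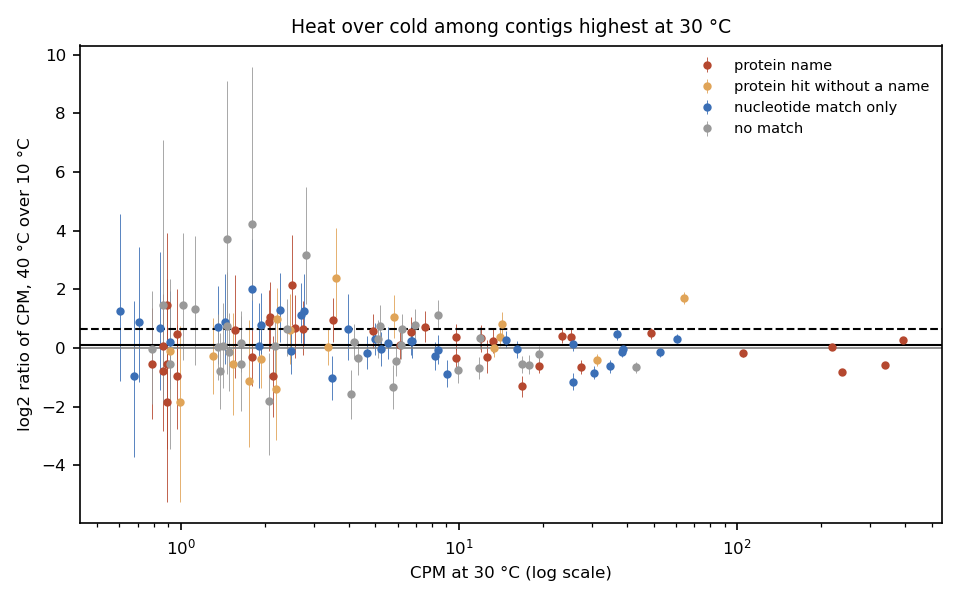
Log2 ratio of CPM at 40 °C over 10 °C against CPM at 30 °C (log axis) for the 126 contigs, coloured by annotation. Vertical bars are exact 95% intervals of the ratio and cover counting error only. The black line is the median ratio with the authors' scaling, 1.07, and the dashed line the median on the FPKM scale, 1.56. Points lie on both sides of the median, and scatter is widest among contigs of a few CPM.

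A gene identifier was given for 53 of the 126 contigs, which named 51 genes. Of these, 41 were found in UNIL_Sinv_3.0, where all 41 are protein-coding, and 20 of them overlap another gene there. No pair of the 41 genes lay within 2 places of each other in that annotation. For 19 of the 51 genes, 26 further contigs were listed in 1 or 2 tables, of which 20 were lower than at 30 °C wherever listed and 6 higher.

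A contig of adenylate cyclase type 8, from the same assembly cluster as the abundant one, had 120 reads at 10 °C against 8 at 30 °C, 19.1-fold higher (9.40 to 45.3), and 53 reads at 20 °C against 8, 10.9-fold higher (5.16 to 26.6). A second further contig of that gene had 56 reads at 10 °C against 15 at 30 °C, 4.76-fold higher (2.66 to 9.06). These few reads stand beside the 3046 reads at 10 °C and 12983 at 30 °C of the abundant contig. A further contig of neurobeachin had 41 reads at 10 °C and 33 at 40 °C, against 5 at 30 °C, and was 10.5-fold and 5.82-fold higher. A calcium channel contig had 12 reads at 20 °C against 3 at 30 °C, while 2 others of that gene were lower where listed. The other 2 of the 6 contigs that were higher belonged to LOC105195501, with 9 reads at 20 °C and 12 at 40 °C against 1 at 30 °C, and to LOC105200435, with 16 at 10 °C and 22 at 40 °C against 2 at 30 °C. Further contigs of LOC105195501, listed at 20 °C alone, were lower there, with 34 reads against 184 at 30 °C and 15 against 140. The pieces of these genes therefore did not all follow the contig that was highest at 30 °C, at far lower levels.

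**Figure D5:**
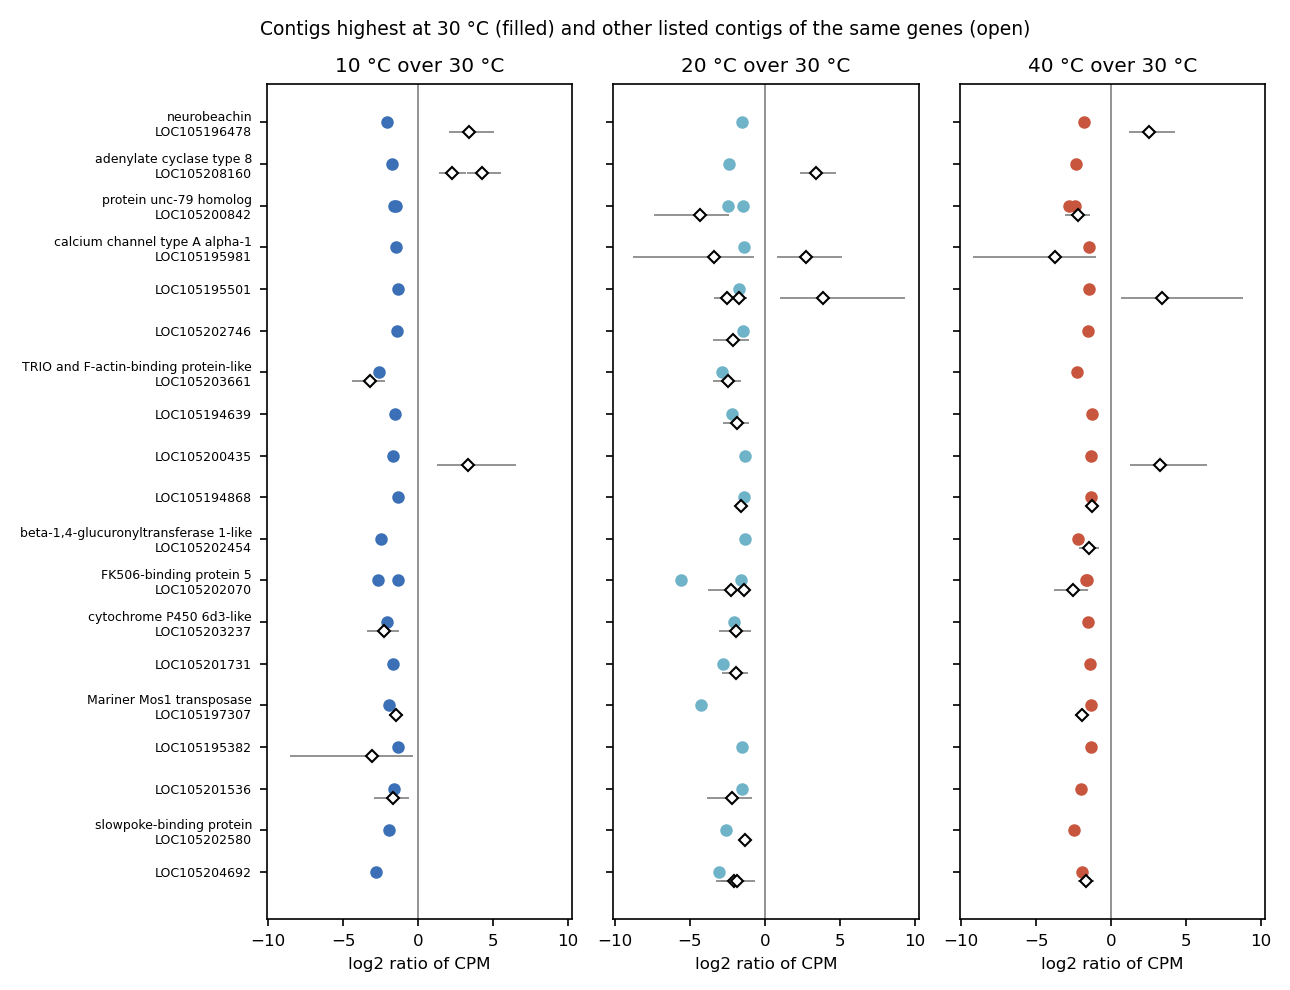
Log2 ratio of CPM at 10, 20 and 40 °C over 30 °C for the 19 genes with further listed contigs, ordered by level at 30 °C. Filled circles are the contigs highest at 30 °C and open diamonds the further contigs where a table lists them, with exact 95% intervals for the diamonds. Of the 26 further contigs 20 lie left of 0 wherever listed and 6 right of it, among them pieces of neurobeachin, adenylate cyclase type 8 and the calcium channel.

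The best protein hit lay outside insects for 1 of the 126 contigs, against 2 of the 117 lowest at 30 °C and 9 of the 302. It was a contig named Clock-controlled protein 6, a name from a fungus, with 5, 4, 34 and 2 reads at 10, 20, 30 and 40 °C. Some contigs may be pieces of 1 transcript. A pair matched the same uncharacterized gene of Monomorium pharaonis, with 295, 269, 1416 and 596 reads and 262, 250, 986 and 415 reads at 10, 20, 30 and 40 °C. Another pair came from the same assembly cluster and matched ankyrin repeat and death domain genes, with 151, 75, 563 and 265 reads and 9, 14, 106 and 31 reads. Keeping 1 contig per gene identifier or, without one, per protein name left 124 of the 126, and these last 2 pairs were not merged by it.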

How the data were processed

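Whole adult workers of Solenopsis invicta were profiled in 4 libraries, 1 per temperature. Per the submitters' processing notes, reads were handled with Trimmomatic 0.38 and FastQC 0.11.7, with Bowtie 1.1.2, and with RSEM. The sources used here do not name the assembler or the build. A table sets 1 temperature against 30 °C. Estimated counts, as deposited, were whole numbers for every contig. The deposited log2 values equal log2(CPM + 1) with scaled library sizes. The deposited FPKM values follow total reads instead. Relative contig lengths were inferred from reads divided by FPKM, in the library where the FPKM of the contig was highest. The signed fold deposited by the authors, treated as a score, and the p-values deposited by the authors have no replicate behind them, and the p-values served for counts alone. Of the 40 °C table, 1 line was not analysed here.

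Contigs were joined over the 3 tables, and CPM ratios, exact intervals and counts were computed with SciPy 1.17.1, numpy 2.4.6 and pandas 2.3.3 in Python 3.11.15, with plots by matplotlib 3.10.9, on formulas tested on simulated data. The members, lists and naming rule were chosen with earlier results of these data known. Named contigs were, among members that carry a protein name and have 50 or more reads at 30 °C, the 15 with the highest CPM, the 15 with the lowest ratio of the other levels to 30 °C and up to 4 per list, plus unnamed contigs at the extremes and the edges of the rule, 36 in all; other contigs named, most of them known by a nucleotide match, were picked after their values were seen. Lists were found by words in protein names, so a name can fall in a list by its wording alone. Gene names and overlaps came from the annotation of UNIL_Sinv_3.0, and coordinates are left out, as the build of the contigs is unknown. Alternatives were pseudocounts of 0.1 and 5 CPM, the FPKM scaling, 2 tables in place of 3, 4-fold and 10 CPM limits, 1 contig per gene, leaving out hits outside insects, and the authors' adjusted p. A search of promoters for motifs was not run.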

Additional observations from a re-analysis of the deposited data

How the results depend on the processing

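The count of 126 contigs depended on the rule. With 2 tables it was 490 for 10 and 20 °C, 405 for 10 and 40 °C and 349 for 20 and 40 °C. It was 22 with a 4-fold limit, 36 with at least 10 CPM at 30 °C and 5 by the adjusted p in all 3 of the authors' deposited tables. The FPKM scaling gave 126, a count fixed in advance, as its shifts are smaller than the smallest listed fold. Keeping 1 contig per gene identifier or protein name gave 124, and leaving out hits outside insects 125. At least 2-fold lower on the FPKM scale, a limit chosen after seeing the data, were 101. A pseudocount of 5 CPM gave median log2 ratios of -0.59 at 10 °C and -0.55 at 40 °C, and one of 0.1 CPM gave -1.71 at 40 °C; a larger pseudocount shrinks ratios by its construction. The median log2 ratio of 40 over 10 °C was 0.049, and -0.078 in contigs of at least 10 CPM at 30 °C, a limit chosen after seeing the data; the cause was not tested. The share with a protein name was 29.4%, and 28.2% with 1 contig per gene identifier or protein name. A pseudocount cannot turn a ratio around, and the FPKM shifts are smaller than the smallest listed fold. Of 108 ratios of the 36 contigs named by the rule, 0 therefore changed direction with either pseudocount or with the FPKM scaling. The pseudocount of 5 CPM moved 68 of them beyond their counting interval, the FPKM scaling 43 and the pseudocount of 0.1 CPM 23. No paired analysis was possible because each temperature had 1 library, and for the same reason no replicate could be left out. Depth limits the 20 contigs with under 50 reads at 30 °C most.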
